A study of Mus musculus with 11 samples.

Results

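The protein tyrosine phosphatase genes described here were those whose symbol followed the Ptpn or Ptpr naming pattern, with 1 gene of that pattern left out by the rule. Of 23071 gene identifiers in the expression table, 37 matched, and 35 of these had a value above 0 in at least 1 library. Ptprq and Ptprt were at 0 in every library. The 35 members comprised 19 genes named for the receptor type, whose products cross the membrane, and 16 of the cytoplasmic type. Ptprv, counted among the 19, is annotated by RefSeq as a transcribed pseudogene. All identifiers were mouse gene symbols.

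Bulk RNA sequencing covered 11 libraries from C57BL/6 mice in 3 groups. Wild Type progenitor B cells were column purified from bone marrow in 3 pools of 3, 7 and 6 mice. Ebf1+/- progenitor B cells, which carry 1 intact allele of the B-lineage transcription factor gene Ebf1, were column purified from bone marrow in 3 pools of 3, 6 and 7 mice. The leukemia group held 5 libraries of leukemic B cells, each from 1 Pax5+/- x Ebf1+/- mouse. These cells came from lymph node suspensions that were flash frozen, with no purification column named for them. Genotype, tissue, purification and pooling changed together between leukemia and either bone marrow group, so their parts in a difference cannot be told apart. The listed alignment tools were the same for wild type and leukemia and differed for Ebf1+/-, so in both comparisons with Ebf1+/- the tools cannot be told apart from the group. Nothing in the labels says whether numbered bone marrow pools were prepared on separate days, and p-values measure the spread between these libraries only.

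Protein tyrosine phosphatases remove phosphate from tyrosine and oppose the tyrosine kinases that carry signals from antigen and cytokine receptors. In B cells, Ptprc (CD45) removes the inhibitory phosphate of Src family kinases and thereby lets receptor signalling start. Ptpn6 binds inhibitory receptors through its SH2 domains and dampens signalling, and Ptpn22 works with the kinase Csk to switch Src family kinases off. Only transcript levels were measured here, not enzyme activity.

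The 11 libraries held between 8506680 and 15313920 reads, as recovered from FPKM, the fragments of a gene divided by its transcript length and by the library total. A gene with 2000 bases of exon gained 0.0327 to 0.0588 FPKM for each read. The correlation of log2(FPKM + 1) was 0.893 to 0.984 within groups and was highest, at 0.989, between wild type library 2 and Ebf1+/- library 2, which carry different labels. The summed FPKM of 13 B-lineage markers was 3415 to 5526 in wild type, 2492 to 6561 in Ebf1+/- and 3606 to 4859 in leukemia. The sum of 14 granulocyte markers was 630 to 3398 in wild type, 2716 to 10646 in Ebf1+/- and 3.89 to 8.92 in leukemia, where Cebpe was at 0. The sum of 6 monocyte markers was 387 to 653 in wild type, 481 to 2017 in Ebf1+/- and 54.6 to 155 in leukemia. The sum of 8 megakaryocyte and platelet markers was 88.4 to 500 in wild type, 151, 289 and 4448 in Ebf1+/- libraries 1 to 3, and 0.535 to 2.28 in leukemia. The sum of 8 erythroid markers was 129 to 730 in wild type, 293 to 779 in Ebf1+/- and 0.576 to 1.06 in leukemia, where Car1 was at 0. Hbb-bt and Hba-a1, also in this list, were at 0 in every library of all groups. The T cell sum was 13.9 to 148 in leukemia, 25.5 to 42.4 in wild type and 28.4 to 102 in Ebf1+/-. The highest T cell sum, that of leukemia 1, held Lat at 64.3 and Trat1 at 54.8 FPKM. In the limma comparison with wild type given below, 0 of 9 T cell markers were called higher and 1 lower. Their median difference was -0.50, and 3 of the 9 differences were above 0. The endothelial and stromal sum was 0.586 to 3.73 in leukemia, 4.28 to 55.3 in wild type and 3.35 to 13.9 in Ebf1+/-, which overlapped leukemia. Col1a1 alone gave 50.3 FPKM of the highest sum, that of wild type library 3. The NK cell sum was 22.9 to 37.5 in wild type, 37.2 to 117 in Ebf1+/- and 17.2 to 40.7 in leukemia. The dendritic cell sum was 12.2 to 57.2, 14.8 to 53.8 and 0.517 to 10.7. The sum of 6 RNA quality and handling markers was 136, 32.4 and 43.4 in wild type libraries 1 to 3. It was 30.3 to 45.2 in Ebf1+/- and 29.2 to 101 in leukemia. Several of these sums moved with the groups, and their part in the differences given here was not tested. In bulk samples, fewer cells of a type and less RNA per cell cannot be told apart.

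The summed level of the member genes was higher in leukemias than in wild-type progenitors, and the excess lay in the cytoplasmic members. The summed level of all members was 373 ± 9.62 FPKM (SD, n = 3) in wild type, 431 ± 44.3 (n = 3) in Ebf1+/- and 493 ± 17.6 (n = 5) in leukemia. The wild type libraries ran from 362 to 381 and the leukemias from 476 to 523, with no overlap. The Ebf1+/- libraries ran from 403 to 482 and so reached into the leukemia range. The cytoplasmic members summed to 225 ± 6.99 FPKM in wild type, 294 ± 22.9 in Ebf1+/- and 361 ± 19.9 in leukemia. The receptor members summed to 148 ± 12.5, 137 ± 27.9 and 132 ± 7.25 FPKM, and the ranges of the 3 groups overlapped. These sums are descriptions and carry no test. FPKM is scaled to transcript length, so levels of different genes can be set side by side.

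**Figure D1:**
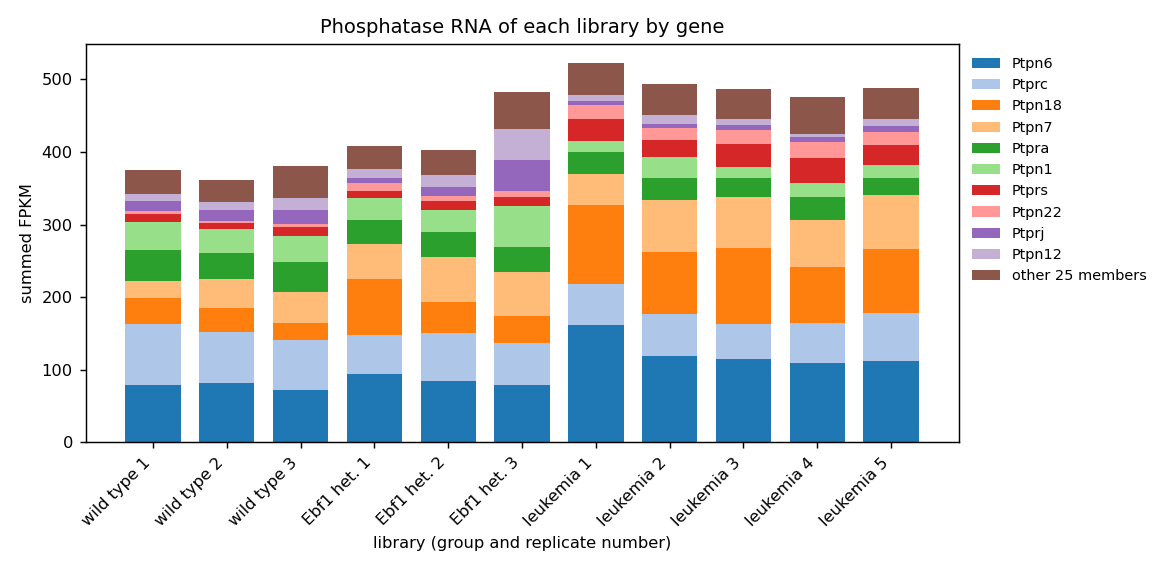
Stacked bars of summed FPKM (y axis, from 0) in each of the 11 libraries (x axis), with 1 colour for each of 10 genes and 1 for the other 25 members. The 5 leukemia bars reach 476 to 523 FPKM and the 3 wild type bars 362 to 381, and the Ptpn6, Ptpn18 and Ptprs segments are wider in every leukemia than in any wild type library.

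A few genes made up most of this total. The 4 highest members held 61.0% of the summed level in wild type, 58.9% in Ebf1+/- and 68.4% in leukemia. In wild type the order of group means was Ptpn6, Ptprc, Ptpra, Ptpn1, Ptpn7 and Ptpn18. In leukemia it was Ptpn6, Ptpn18, Ptpn7, Ptprc, Ptprs and Ptpra, so that Ptpn18 and Ptprs entered the upper ranks while Ptpn1 left them. Ptpn6 and Ptprc did not differ beyond their spread in wild type, at 77.5 ± 4.77 and 74.2 ± 8.22 FPKM, and the same held for each pair of neighbours among Ptpra, Ptpn1, Ptpn7 and Ptpn18, at 39.3 ± 3, 36.3 ± 3.29, 36 ± 9.97 and 30.7 ± 5.55. Ptpra was above both Ptpn1 and Ptpn18 in every wild type library, and its range did not overlap that of Ptpn18. In leukemia Ptpn6, at 123 ± 21.4, and Ptpn18, at 92.7 ± 13.5, had ranges that met at 109 FPKM, but Ptpn6 was above Ptpn18 within every leukemia. Ptpn7 and Ptprc, at 64.7 ± 12.8 and 56.8 ± 6.24 in leukemia, overlapped. At the other end, 13 members were under 1 FPKM on average in every group, and 6 of the 35 had at most 10 reads over all 11 libraries.

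**Figure D2:**
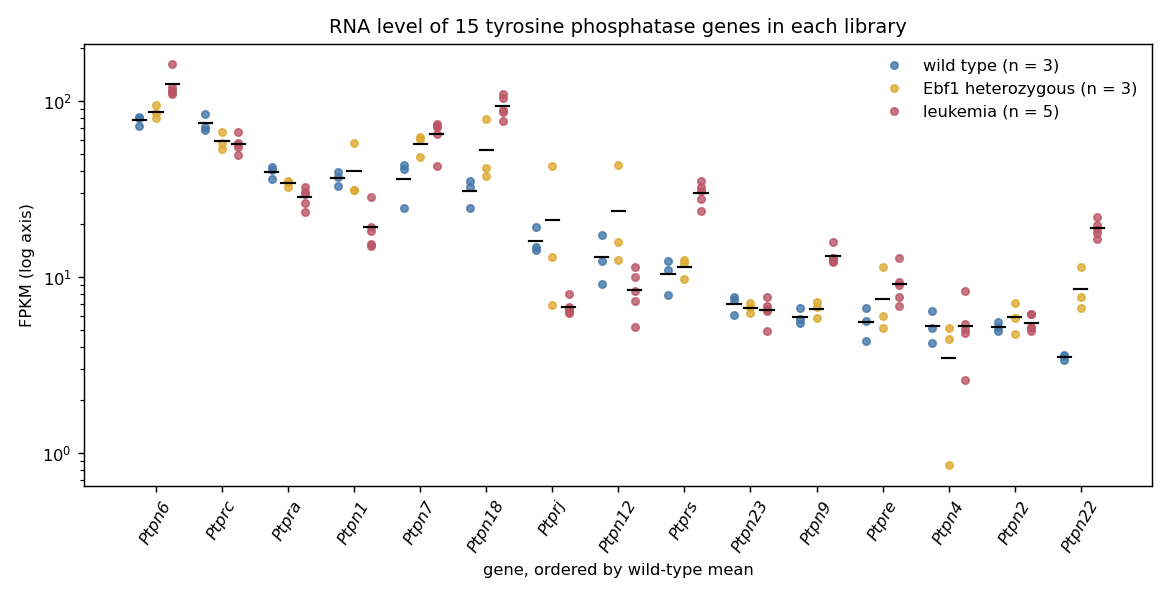
FPKM (y axis, log) of 15 phosphatase genes (x axis, ordered by the wild type mean) with 1 point per library, colour by group and a bar at each group mean. All leukemia points of Ptpn22, Ptprs, Ptpn9, Ptpn18 and Ptpn6 lie above all wild type points, and those of Ptpn1 and Ptprj lie below.

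Leukemia was compared with wild type by limma on log2(FPKM + 1), with differences written as leukemia minus wild type and p-values adjusted over the 10968 genes whose mean was at least 1 FPKM. In this comparison 16 of the 35 members passed that filter and 19 did not, with Ptpn14 just above it at 1.51 FPKM and Ptpn21 just under it at 0.925. Of the 16, 7 were called higher and 4 lower at an adjusted p under 0.05. That is 68.8% of those tested, while 44.8% of all genes tested were called in this comparison. Over all genes 20.7% were called higher and 24.1% lower. Among the receptors tested 2 rose and 3 fell, out of 5, and among the cytoplasmic genes 5 rose and 1 fell, out of 11. The median difference of the 16 was 0.16, against -0.04 over all genes tested. The larger number of rises depended on the filter: without it 34 members were tested, with 7 called higher and 9 lower. The libraries of the groups did not overlap for 10 of the 16 members, and for 46.3% of all genes tested. Calls with at least a 2-fold change fell on 5 of the 16, Ptpn22, Ptpn18, Ptprs and Ptpn9 higher and Ptprj lower, and on 15.2% of all genes tested.

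**Figure D3:**
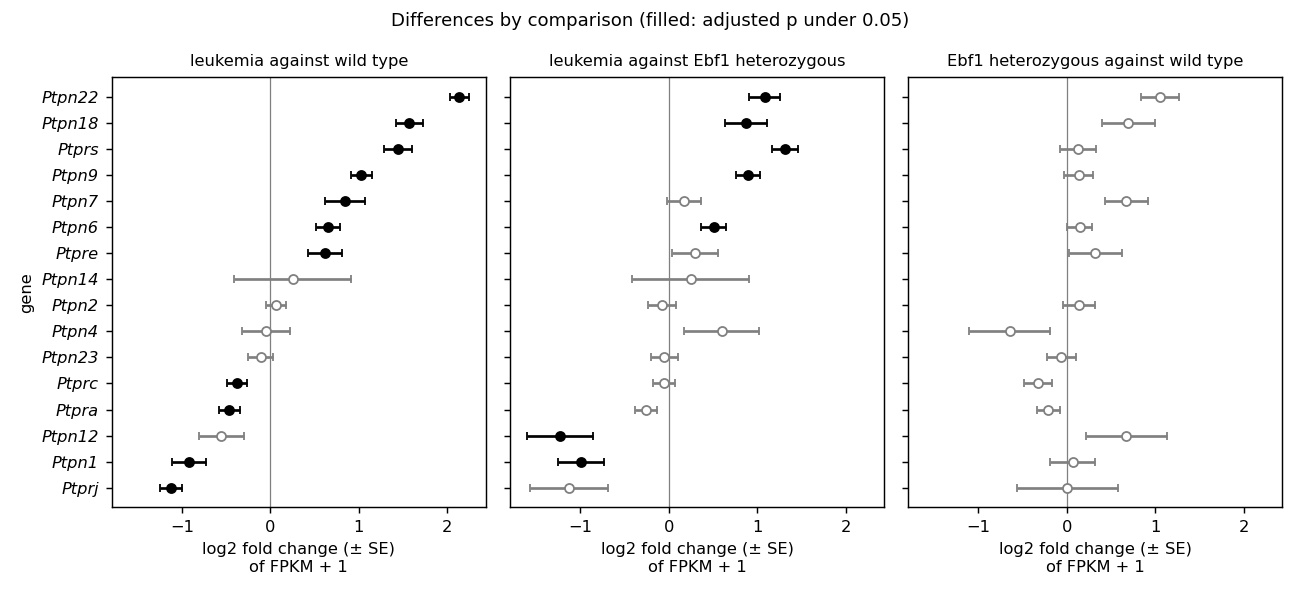
Difference in log2(FPKM + 1) with its standard error (x axis) for the 16 members tested in leukemia against wild type (y axis), in 1 panel per comparison, with filled points at an adjusted p under 0.05. Ptpn22 is highest against wild type at 2.14 and Ptprs against Ebf1+/- at 1.31, Ptprj is lowest against wild type at -1.12, and no point is filled for Ebf1+/- against wild type, where Ptpn14 was not tested.

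The phosphatases that act on the antigen receptor and its Src family kinases moved in different directions. Ptprc, at chromosome 1, 138062859 to 138175756 (coordinates of all genes are RefSeq GRCm38.p6), measured 83.6, 70.8 and 68.3 FPKM in wild type libraries 1 to 3. It measured 53.1, 66.4 and 57.4 FPKM in Ebf1+/- and 56.8, 57.5, 48.9, 54.7 and 66.2 FPKM in leukemias 1 to 5. Each leukemia was below each wild type library. The difference was -0.38 (SE 0.11, limma adjusted p = 0.0236). The call was lost without wild type library 1 (adjusted p = 0.0874) or wild type library 2 (adjusted p = 0.0518) and held in the other 6 fits that left out 1 library.

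Ptpn6, at chromosome 6, 124720707 to 124738709, measured 79.3, 81.1 and 72.1 FPKM in wild type, 93.9, 84.5 and 79.1 in Ebf1+/- and 161, 119, 115, 109 and 112 in the leukemias. All leukemias lay above all bone marrow libraries, with leukemia 1 highest. It rose by 0.65 against wild type (SE 0.13, limma adjusted p = 0.00416). An antisense gene, Gm20531, shares 6.96% of the Ptpn6 exon bases, and reads from the overlap cannot be assigned where strand was not kept. Because Ptprc and Ptpn6 act in opposite ways on receptor signalling, their ratio was taken in each library. The Ptpn6 to Ptprc ratio of FPKM was 0.949, 1.15 and 1.06 in wild type, 1.77, 1.27 and 1.38 in Ebf1+/- and 2.84, 2.07, 2.35, 2.00 and 1.70 in leukemia. Only the lowest leukemia value, 1.70, fell among the Ebf1+/- values, and the Ebf1+/- and leukemia values all exceeded the wild type ones. Group means were 1.05 ± 0.0986 (n = 3), 1.47 ± 0.261 (n = 3) and 2.19 ± 0.428 (n = 5). The two-sided exact permutation p was 0.0357 for leukemia against wild type, the smallest that this test allows with 5 and 3 libraries. Every leukemia was above every wild type library for Ptpn6 and below it for Ptprc. That fixed this p in advance, so it adds no evidence to the values of the 2 genes. The permutation p was 0.0714 for leukemia against Ebf1+/- and 0.1 for Ebf1+/- against wild type, the smallest that the latter design allows.

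Ptpn22, at chromosome 3, 103856575 to 103912252, had the largest difference of the 16 members tested. It measured 3.38, 3.6 and 3.54 FPKM in wild type, 11.3, 6.62 and 7.71 in Ebf1+/- and 19.8, 16.4, 18.7, 21.8 and 17.7 in leukemia. The 3 groups did not overlap, and the Ebf1+/- libraries lay between the other groups. The ratio of mean FPKM, leukemia over wild type, was 5.39, and the difference was 2.14 (SE 0.11, limma adjusted p = 4.55e-06). Ptprj (CD148), a receptor-type phosphatase of haematopoietic cells that also acts on Src family kinases, moved the other way. Ptprj, at chromosome 2, 90429756 to 90580694, measured 14.8, 14.1 and 19.2 FPKM in wild type, 6.94, 13 and 42.7 in Ebf1+/- and 6.22, 6.54, 6.75, 6.33 and 7.96 in leukemia. The leukemias were close together and below every wild type library, while the Ebf1+/- libraries ran from the leukemia range to above wild type. Ptprj fell by 1.12 on the log2 scale against wild type (SE 0.13, limma adjusted p = 0.00022). Its highest library, Ebf1+/- 3, was also the library with the platelet marker sum of 4448 FPKM, and the part of those cells in the value was not tested.

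The PEST-type cytoplasmic phosphatases differ in what they act on, with Ptpn12 best known for substrates at focal adhesions and the cytoskeleton. Ptpn18, at chromosome 1, 34459729 to 34473784, measured 35.1, 32.5 and 24.5 FPKM in wild type, 78.5, 41.7 and 37.3 in Ebf1+/- and 109, 85.6, 104, 76.9 and 88 in leukemia. The leukemias were all above wild type, and Ebf1+/- library 1 reached into their range. The difference from wild type was 1.57 (SE 0.15, limma adjusted p = 0.000101). An antisense gene, Gm28417, shares 7.58% of the Ptpn18 exon bases. Ptpn12, at chromosome 5, 20986645 to 21055911, measured 9.08, 12.3 and 17.2 FPKM in wild type and 7.31, 11.3, 8.25, 5.2 and 9.99 in leukemia. The groups overlapped and the gene was not called, except under array weights (adjusted p = 0.0230).

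Ptpn7 is a haematopoietic phosphatase that binds and inactivates the MAP kinases Erk and p38, at chromosome 1, 135131838 to 135145328. It was called higher, with 24.6, 40.7 and 42.8 FPKM in wild type and 42.6, 71.8, 70.6, 64.7 and 73.8 in leukemia. The lowest leukemia and the highest wild type library overlapped, and without wild type library 1 the limma adjusted p was 0.0561. The related MAP kinase phosphatases Ptpn5 and Ptprr were nearly silent, with 6, 7 and 4 reads for Ptpn5 over the wild type, Ebf1+/- and leukemia libraries and 9, 10 and 0 for Ptprr.

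Ptpn1 and Ptpn2 are closely related enzymes that act on JAK kinases, and they differed in their transcript levels. Ptpn1, the endoplasmic reticulum phosphatase, at chromosome 2, 167930750 to 167979385, measured 39.2, 32.7 and 37 FPKM in wild type, 30.9, 30.9 and 57.2 in Ebf1+/- and 14.9, 28.4, 15.3, 19.1 and 18.2 in leukemia. All leukemias lay below all bone marrow libraries, and leukemia 2 was nearest to them. Ptpn1 fell by 0.92 on the log2 scale against wild type (SE 0.19, limma adjusted p = 0.00469). Ptpn2, at chromosome 18, 67665501 to 67724632, had 5.19 ± 0.304 FPKM in wild type (n = 3), 5.87 ± 1.21 in Ebf1+/- (n = 3) and 5.48 ± 0.593 in leukemia (n = 5). Its difference from wild type was 0.06 (SE 0.12, limma adjusted p = 0.685), smaller than its error.

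Among the 5 receptor-type genes tested, Ptprs rose most. Ptprs belongs to the LAR family of receptors with immunoglobulin and fibronectin domains, known for binding proteoglycans on neurons. Ptprs, at chromosome 17, 56412426 to 56476561, measured 11, 7.9 and 12.3 FPKM in wild type, 9.66, 11.9 and 12.4 in Ebf1+/- and 30.5, 23.6, 32.1, 34.8 and 27.7 in leukemia. Wild type and Ebf1+/- overlapped, and every leukemia was above both. The difference from wild type was 1.44 (SE 0.16, limma adjusted p = 0.000208). The paired receptors Ptpra and Ptpre, each able to activate Src family kinases, were called in opposite directions. Ptpra fell, from 39.3 ± 3 FPKM in wild type to 28.3 ± 3.54 in leukemia, with Ebf1+/- at 33.8 ± 1.32. Ptpre was called higher, its mean being 9.11 ± 2.27 FPKM in the leukemias beside 5.54 ± 1.18 in wild type, and this call was lost under 6 of 18 alternatives. Ebf1+/- measured 6, 5.11 and 11.3 FPKM for Ptpre, the highest again in library 3.

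Ptpn9, whose product sits on secretory vesicles through a lipid-binding Sec14 domain, rose in every leukemia. Ptpn9, at chromosome 9, 56994968 to 57062808, measured 5.45, 5.72 and 6.6 FPKM in wild type, 5.84, 7.21 and 6.7 in Ebf1+/- and 12.2, 12.8, 12.2, 12.8 and 15.8 in leukemia. The bone marrow groups overlapped and the leukemias lay above both. The difference from wild type was 1.03 (SE 0.12, limma adjusted p = 0.000203). Ptpn23, an endosomal sorting protein, averaged 7.04 FPKM in wild type, 6.67 in Ebf1+/- and 6.46 in leukemia and was not called. Ptpn4, a phosphatase with FERM and PDZ domains, was uneven, at 0.846, 5.1 and 4.41 FPKM in Ebf1+/- and 5.05, 8.32, 4.76, 2.6 and 5.4 in leukemia, and was not called either.

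Several members at low level fell to nearly no reads in leukemia, and others were present in some leukemias only. The RefSeq promoters (GRCm38.p6, from 250 bases before to 50 bases after an annotated start) of 3 of them hold a palindrome known as an Ebf1 binding core, TCCC and GGGA with any 2 bases between. They are shown because the Ebf1+/- and leukemia groups, unlike wild type, carry Ebf1 mutations, and a link to the read counts was not tested. The palindrome reads the same on both strands. It occurred in 3 of 44 promoters, belonging to 30 of the 35 members, and in 0.904% of 32851 promoters of the same length. Counted from the start site, the match begins at position -242 in Ptpn14, at -143 in Ptpn13 and at -65 in 1 of the 4 promoters of Ptprr. An ETS-type word, CCGGAAGT, searched on both strands, occurred in 1 member promoter, that of Ptpn1, and in 3.89% of all promoters. A match describes letters only, and binding was not measured. The sequences below are 5' to 3' on the plus strand, with the palindrome in capitals, for Ptpn14 (chr1:189728018-189728317), Ptpn13 (chr5:103424942-103425241) and Ptprr (chr10:116143648-116143947).
Ptpn14: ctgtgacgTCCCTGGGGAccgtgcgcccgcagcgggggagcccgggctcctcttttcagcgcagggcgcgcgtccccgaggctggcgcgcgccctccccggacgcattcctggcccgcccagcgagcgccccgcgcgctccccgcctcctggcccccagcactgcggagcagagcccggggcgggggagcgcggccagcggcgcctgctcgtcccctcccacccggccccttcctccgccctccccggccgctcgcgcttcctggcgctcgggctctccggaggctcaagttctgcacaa
Ptpn13: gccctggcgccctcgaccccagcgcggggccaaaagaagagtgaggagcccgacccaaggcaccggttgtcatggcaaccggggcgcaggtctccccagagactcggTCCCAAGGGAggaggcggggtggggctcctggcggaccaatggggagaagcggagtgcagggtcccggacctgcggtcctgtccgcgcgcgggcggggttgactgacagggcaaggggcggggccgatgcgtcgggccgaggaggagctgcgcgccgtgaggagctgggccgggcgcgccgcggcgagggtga
Ptprr: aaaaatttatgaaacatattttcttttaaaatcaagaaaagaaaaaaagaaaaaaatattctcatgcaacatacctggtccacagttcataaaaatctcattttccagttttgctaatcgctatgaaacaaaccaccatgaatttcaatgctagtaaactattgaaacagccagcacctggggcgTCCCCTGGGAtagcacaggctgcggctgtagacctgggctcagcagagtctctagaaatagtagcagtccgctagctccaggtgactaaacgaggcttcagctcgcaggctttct

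Ptpn13, a large scaffold phosphatase with FERM and PDZ domains, had 19, 84 and 292 reads in wild type libraries 1 to 3, 28, 72 and 168 in Ebf1+/- and 5, 0, 1, 0 and 2 in leukemia. Per library size the rate was 80.8-fold lower in leukemia than in wild type, with an exact 95% counting interval of 40.6 to 188. Ptprf, a LAR family receptor of epithelial cells, had 48, 38 and 236 reads in wild type, 48, 48 and 190 in Ebf1+/- and 0, 1, 0, 0 and 1 in leukemia. Its rate was 263-fold lower, with an interval of 72.3 to 2185. Without wild type library 3 the rates were 34.4-fold lower for Ptpn13 and 115-fold lower for Ptprf. Without leukemia 1, which held 5 of the 8 leukemia reads, Ptpn13 was 186-fold lower, and Ptprf was 414-fold and 404-fold lower without leukemia 2 or leukemia 5. The intervals cover counting error only, and the bone marrow libraries varied by far more than that. For both genes the number 3 library was the highest of wild type and of Ebf1+/-. The erythroid marker sum was highest in the same libraries, at 730 and 779 FPKM, and so was the platelet sum, at 500 and 4448 FPKM. The dendritic cell sum, at 57.2 and 53.8, and the endothelial and stromal sum, at 55.3 and 13.9, also peaked there. The T cell sum did too, at 42.4 and 102 FPKM. The B-lineage sum was lowest in them, at 3415 and 2492 FPKM. The part of any of these cells was not tested. Ptprr, with the palindrome shown above, had 2, 1 and 6 reads in wild type and none in leukemia, at least 4.91-fold lower with a floor of 3 reads over the group. An antisense gene, 4933416C03Rik, shares 11.0% of the Ptprr exon bases, and reads from the overlap cannot be assigned where strand was not kept. Ptprd, another LAR family gene, had 1, 1 and 11 reads in wild type and 0 in leukemia, at least 7.09-fold lower by the same floor. Both bounds rested on wild type library 3, since without it 3 and 2 wild type reads were left, no more than the floor.

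Ptpro and Ptpn21 fell less far. Ptpro, a receptor with fibronectin repeats known from kidney podocytes, had 60, 31 and 80 reads in wild type, 211, 47 and 152 in Ebf1+/- and 3, 1, 20, 1 and 24 in leukemia. Its rate was 5.71-fold lower in leukemia than in wild type (counting interval 4.13 to 8.01), and leukemias 3 and 5 held most of the leukemia reads. Without leukemia 5 the rate was 8.58-fold lower. Ptpn21, a FERM-domain phosphatase, had 98, 95 and 123 reads in wild type, 66, 63 and 97 in Ebf1+/- and 64, 45, 31, 27 and 23 in leukemia, a rate 2.72-fold lower (2.27 to 3.28).

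Ptpn14, Ptpn3, Ptprn and Ptprm separated the leukemias from each other. Ptpn14, a FERM-domain phosphatase known as a partner of the Hippo pathway effector Yap, had 48, 0, 407, 811 and 0 reads in leukemias 1 to 5. It had 29, 79 and 279 reads in wild type and 53, 75 and 221 in Ebf1+/-. Leukemia 4 exceeded every bone marrow library while leukemias 2 and 5 had none. Ptpn3, a FERM and PDZ phosphatase, had 145, 0, 0, 161 and 3 reads in leukemia, 22, 52 and 160 in wild type and 30, 70 and 363 in Ebf1+/-. The leukemias with most Ptpn3 reads were 1 and 4, and those with most Ptpn14 reads were 3 and 4. Ptprn, a secretory granule protein of neuroendocrine cells, had 47, 4, 20, 38 and 3 reads in leukemia, 8, 7 and 20 in wild type and 5, 4 and 150 in Ebf1+/-. Ptprm, an adhesion receptor, had 1, 2, 38, 13 and 10 reads in leukemia and 13 over the 3 wild type libraries, so that leukemia 3 held 38 of the 64 leukemia reads. Ptprv, which RefSeq annotates as a transcribed pseudogene, had 69 reads over wild type, 100 over Ebf1+/- and 267 over the 5 leukemias. An antisense gene, Gm10535, shares 4.94% of the Ptprv exon bases. The RefSeq span of Ptprv, chromosome 1, 135108498 to 135132575, also overlaps that of the more abundant Ptpn7 on the other strand. Whether reads of these neighbours were counted for Ptprv was not tested.

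**Figure D4:**
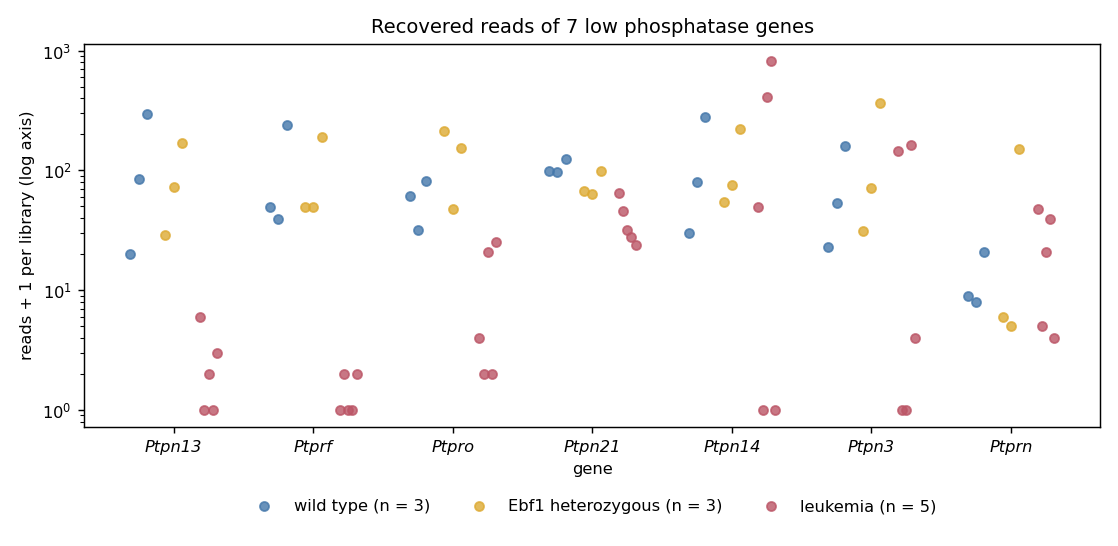
Recovered reads + 1 per library (y axis, log) for 7 low-level members (x axis), with 1 point per library and colour by group, not scaled to library total. Ptpn13 and Ptprf have at most 5 reads in every leukemia, and Ptpn14 and Ptpn3 have leukemias with 0 reads beside leukemias with over 100.

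Ptpru, an adhesion receptor, had 10, 5 and 4 reads in wild type, 14, 9 and 42 in Ebf1+/- and 1, 0, 1, 1 and 4 in leukemia. Its rate in leukemia was 4.44-fold lower than in wild type (counting interval 1.79 to 12.5) and 7.94-fold lower without leukemia 5. It was 14.5-fold lower than in Ebf1+/- (6.67 to 37.6), where library 3 again held most reads. The remaining members had few reads in any group. Ptprk had 5 over wild type, 3 over Ebf1+/- and 6 over leukemia. Ptpn20 had 3, 2 and 0 reads, Ptprn2 had 0, 5 and 1, and Ptprh had 1, 1 and 0. Ptprb had 2 reads in Ebf1+/- alone, and Ptprg and Ptprz1 had 1 read each, in wild type. No difference is drawn from these counts.

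Leukemia was also compared with Ebf1+/- progenitors, which are Ebf1+/- like the leukemic mice but differ in Pax5 genotype, tissue, column purification, pooling and the listed alignment tools. In this comparison 17 members passed the filter and 18 did not. Called higher were 5, Ptpn22, Ptprs, Ptpn9, Ptpn18 and Ptpn6, and called lower were 2, Ptpn1 and Ptpn12. That is 41.2% of those tested, against 21.6% of all 11161 genes tested, of which 9.31% were higher and 12.3% lower. The median difference of the 17 was 0.17 and that of all genes tested was -0.02. Groups did not overlap for 7 of the 17 members and for 29.1% of all genes tested. The 2 leukemia comparisons share the leukemia libraries and are not independent.

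Ptpn22 differed by 1.08 from Ebf1+/- (SE 0.17, limma adjusted p = 0.00304) and Ptprs by 1.31 (SE 0.15, limma adjusted p = 0.000589). Ptpn9 was higher by 0.90 with a limma adjusted p of 0.00204. Calls near the threshold depended on single libraries. Ptpn6 rose by 0.51 (SE 0.15, limma adjusted p = 0.0376), and the p was 0.0908 without Ebf1+/- library 2 and 0.111 without Ebf1+/- library 3. It was 0.068, 0.0627 and 0.0542 without leukemia 2, 3 and 5. Ptpn18 was called at an adjusted p of 0.0287 and lost the call under 6 of 18 alternatives. Ptpn1 fell by 0.99 on the log2 scale (SE 0.26, limma adjusted p = 0.0263), with p at 0.0567, 0.0586 and 0.0815 without leukemia 1, leukemia 3 and Ebf1+/- library 3. Ptpn12, at 12.5, 15.6 and 43 FPKM in Ebf1+/-, fell by 1.23 (SE 0.37, limma adjusted p = 0.0453) and lost the call under 12 of 18 alternatives, with adjusted p from 0.0255 to 0.125. Ptprj, whose Ebf1+/- libraries ranged from 6.94 to 42.7 FPKM, was not called (limma adjusted p = 0.101), though it was under array weights and without Ebf1+/- library 1, with adjusted p as low as 0.0174. Ptprc differed by -0.05 (SE 0.13, limma adjusted p = 0.797) and Ptpn2 by -0.07 (SE 0.16, limma adjusted p = 0.77).

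No member passed the threshold between Ebf1+/- and wild type progenitors, groups that differ in the Ebf1 genotype and in the listed alignment tools. Here 20 members were tested and 0 were called, as were 0 of all 11167 genes tested (0%). With voom on the recovered reads, 0 members were called as well. At an unadjusted p under 0.05 limma found 2 members, Ptpn22 and Ptpn7, and 863 genes in all, or 7.73%. With the replicate number as a block these became 5 members and 1800 genes, or 16.1%, and 0 members were called. The differences were above 0 for 13 of the 20 members, with a median of 0.13 against 0.03 over all genes tested. Groups did not overlap for 6 of the 20 and for 15.6% of all genes tested.

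The 5 members with the smallest p in this comparison were Ptpn22, Ptpn7, Ptpn18, Ptprc and Ptpro. Ptpn22 differed by 1.05 (SE 0.21, limma adjusted p = 0.3), its 3 Ebf1+/- libraries each above 3.6 FPKM, the highest wild type value. In a fit over all 3 groups its adjusted p was 0.0443. Ptpn7, at 47.7, 62.4 and 60.2 FPKM in Ebf1+/-, differed by 0.67 (SE 0.24, limma adjusted p = 0.575). Ptpn18 differed by 0.69 (SE 0.30, limma adjusted p = 0.652), with Ebf1+/- library 1 far above the others. Ptprc differed by -0.33 (SE 0.15, limma adjusted p = 0.693) and Ptpro by 0.53 (SE 0.30, limma adjusted p = 0.722). Ptpn6 differed by 0.14 (SE 0.14, adjusted p = 0.792), Ptpn1 by 0.07 (SE 0.26, adjusted p = 0.95) and Ptpn2 by 0.14 (SE 0.19, adjusted p = 0.843), all by limma.

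The kinases and receptors on which these phosphatases act were read from lists of partner genes. Of 9 Src family kinases and their regulators tested in leukemia against wild type, 3 rose and 4 fell, or 77.8% called, beside 44.8% of all genes tested. Lck rose from 15.3 ± 3.27 to 71.1 ± 21.4 FPKM and Fyn from 19.3 ± 2.02 to 44.5 ± 5.24, with Pag1, the membrane anchor of Csk, also higher. Lyn, the main Src family kinase of B cells, fell from 109 ± 23.2 to 37.3 ± 10.3 FPKM, and Fgr and Csk were among the others that fell. Of 11 receptors with inhibitory motifs that can bind Ptpn6, 8 fell and 0 rose, or 72.7% called, with a median difference of -1.22. Cd72 fell from 209 ± 109 to 19.7 ± 8.85 FPKM and Siglecg from 95.5 ± 46.9 to 26.3 ± 8.14, while Pirb, Lilrb4a, Lair1, Pecam1, Sirpa and Ceacam1 were the others. Several of these receptors and the kinase Fgr are also expressed by myeloid cells, whose marker sums fell too. The part of those cells in these differences was not tested.

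Of 12 antigen receptor components and substrates, 1 rose, Plcg2, and 4 fell, Syk, Dok3, Zap70 and Cd79b, which is 41.7% called and near the 44.8% of all genes. Syk, a tyrosine kinase opposed by Ptpn6, fell from 378 ± 95 to 97.3 ± 25.2 FPKM. Of 9 JAK and STAT genes, 1 rose, Jak3, from 8.4 ± 1.74 to 22.4 ± 5.33 FPKM, and 4 fell, among them Jak2, Stat3 and Stat6, or 55.6% called. Of the 2 genes tested whose products associate with Ptprc, Grb2 fell and Ptprcap was not called. Against Ebf1+/-, 2 of 9 Src family genes rose and 3 fell, 0 of 12 inhibitory receptors rose and 7 fell, 1 of 12 antigen receptor genes rose and 2 fell, and 1 of 9 JAK and STAT genes rose and 3 fell. These are 55.6%, 58.3%, 25% and 44.4% called, beside 21.6% of all genes tested. Between Ebf1+/- and wild type, limma called no gene of these lists.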

How the data were processed

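The deposited values were FPKM per gene, made by the authors, with reads aligned to mm10 (GRCm38); per the submitters' processing notes the tools were BWA 0.7.12 for wild type and leukemia and TopHat2 with Cufflinks for Ebf1+/-. The read counter, the annotation and whether strand was kept were not given in the sources used here. Whole reads were recovered for 17380 of 17380 genes above 0 (100%, within 0.001 read). log2(FPKM + 1) was tested with limma 3.58.1 (R 4.3.3, trended empirical Bayes) over genes averaging 1 FPKM or more in the libraries compared, with Benjamini-Hochberg adjustment over all of them; a fold change on this scale understates that of low genes. The fit was tested on simulated data. Tests are two-sided. Tables were made with Python 3.11.15 and pandas 2.3.3.

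The members, the partner and marker lists and the tests were chosen with earlier results of these data known. Test values are printed for members called with at least a 2-fold change in a leukemia comparison, for Ptprc, Ptpn6, Ptpn1, Ptpn2 and Ptpn22, and for the 5 members with the smallest p in Ebf1+/- against wild type; the other adjusted p-values given for calls near the threshold were chosen after their values were seen. Deviations from group means of same-numbered wild type and Ebf1+/- libraries correlated at 0.652, 0.325 and 0.69, so the numbers were taken to pair them, though the labels name no shared batch. Leukemia numbers were not (-0.136 to 0.0716). Alternatives were another pseudocount (0.1), a filter at 5 FPKM or none, quantile and median-ratio scaling, voom on the recovered reads, array weights, robust empirical Bayes, 1 fit over all groups, the replicate block and leaving out each library. Read rates of low members with each library left out were added after seeing the data. Protein sequences were not analysed here, and promoters of Ptpn2, Ptpn12, Ptprb, Ptprd and Ptprv were not used. Some partner genes are counted in their lists but not reported here by name.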

Additional observations from a re-analysis of the deposited data

Results flagged for a closer look

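In leukemia 1, Ptpn6 stood apart from the other leukemias at 161 FPKM, with a gap to its nearest neighbour of 0.810 of the group's range, above the critical value of 0.71 for 5 samples. In leukemia 5, Ptpn9 stood apart at 15.8 FPKM, with a gap of 0.815 of the range. The check covered 16 members with a leukemia mean of at least 1 FPKM, and chance alone marks about 5% of groups.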

How the results depend on the processing

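Members called in leukemia against wild type ran from 5 to 7 higher and from 3 to 4 lower when each library was left out. With no filter 34 members were tested, and 7 were higher and 9 lower, the additions being Ptpn13, Ptpn21, Ptprf, Ptpro and Ptprr. In Ebf1+/- against wild type 0 were called without any 1 library, and 1, Ptpn22, was higher with all groups in 1 fit. In leukemia against Ebf1+/- the leave-one-out range was 3 to 5 higher and 0 to 3 lower. With no filter 33 members were tested there, and 5 were higher and 4 lower. The number called lower was 1 each under quantile scaling, median-ratio scaling and voom. The shares of all genes called without the filter are not given here. Directions reversed for 3 of the genes whose test values are printed, each with a difference near 0: Ptpn1 against wild type in Ebf1+/- was -0.00 without wild type library 2 and -0.22 without Ebf1+/- library 3 (-0.22 to 0.21 over libraries left out), Ptpn2 in leukemia against Ebf1+/- was 0.032 under quantile scaling and 0.052 without Ebf1+/- library 1 (-0.20 to 0.052 over libraries left out), and Ptprc there was 0.012 under quantile scaling and 0.034 without Ebf1+/- library 2 (-0.12 to 0.034). The cause was not tested. Among other members, not called in the comparison named, the sign turned under 1 to 6 alternatives for Ptprj, Ptprf, Ptpn13, Ptprs and Ptpn23 in Ebf1+/- against wild type, for Ptpn4, Ptpn14 and Ptpn23 in leukemia against wild type and for Ptpn14 and Ptpn23 in leukemia against Ebf1+/-. Array weights gave 5 lower in leukemia against wild type and 3 lower against Ebf1+/-. Quantile scaling moved the median of all genes in leukemia against Ebf1+/- from -0.02 to 0.08 and the calls over all genes to 1568 higher and 1120 lower. In leukemia against wild type it gave 2632 higher and 2385 lower, in place of 2267 and 2647.

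With the replicate block, 6 members were higher and 4 lower in leukemia against wild type, 0 were called in Ebf1+/- against wild type, and in leukemia against Ebf1+/- 3 were higher and 0 lower, with Ptpn6 at an adjusted p of 0.085 and Ptpn1 at 0.13. In the leukemia comparisons the numbers pair no samples.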

Other observations

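Tyrosine and dual-specificity phosphatases outside the Ptpn and Ptpr names were also read. Of 14 tested in leukemia against wild type, 1 rose and 4 fell, or 35.7% called, beside 44.8% of all genes tested. Eya1, a transcriptional coactivator with a tyrosine phosphatase domain, measured 4.34, 4.00 and 4.33 FPKM in wild type, 2.22, 2.28 and 1.33 in Ebf1+/- and 0 in each of the 5 leukemias. All wild type libraries lay above all Ebf1+/- libraries, a difference that was not called (limma adjusted p = 0.427). With a floor of 3 reads over the group, Eya1 was at least 375-fold lower in leukemia than in wild type. Cdc25b, the phosphatase that activates cyclin-dependent kinases at mitotic entry, fell from 164 ± 31.1 FPKM (n = 3) to 33.5 ± 10.2 (n = 5). Ptp4a2 and Eya3 were the others that fell. Ptpmt1, a mitochondrial phosphatase of cardiolipin synthesis, rose from 10.6 ± 2.4 to 23.1 ± 1.91 FPKM.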
